A study of Homo sapiens with 12 samples.

Results

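The data compare RPE1 cells that were sorted at a 2N DNA content after siRNA against Anillin with 2N cells sorted after a non-targeting control siRNA. RPE1 is a human line of immortalised cells from the retinal pigment epithelium. The comparison was chosen by its samples and not by any measured value. It rests on 3 Anillin 2N libraries and 3 control 2N libraries, 6 of the 12 RNA-seq libraries of the study, and covers every gene in the deposited table. In both groups cells were transfected for 24 h with Lipofectamine RNAiMAX, then held alive for 60 min at 37 °C in the DNA dye Hoechst (2 µg/mL) before sorting, per the labels' protocols. The control 2N group received the non-targeting siRNA and the Anillin 2N group the siRNA against Anillin. The other 6 libraries are the 4N fractions, 3 for control 4N and 3 for Anillin 4N, and show where the 2N response differs. They also enter the fit behind the 2N p-values, where they share in the estimate of the spread. The labels call the libraries biological replicates without naming separate cultures, so the p-values speak to the spread between the 12 libraries fitted, which may be technical. They name no batch and give no purity of the 2N gate.

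Anillin, encoded by ANLN, is a scaffold of the contractile ring. It ties actin, myosin, septins and RhoA to the membrane of the cleavage furrow, and cells that lack it can fail cytokinesis and become tetraploid. Cells with a 2N DNA content are mainly in G0 or G1, where the genes for S phase and mitosis are normally held low. E2F factors switch on the S phase genes at the end of G1. The mitotic genes are driven later through the CHR and CCAAT elements of their promoters, and are repressed through the DREAM complex when p53 induces the CDK inhibitor p21.

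The reads in genes numbered from 22276820 to 61760450 in the 6 2N libraries, and 92.4 to 92.9% of them fell in protein-coding genes. The SD over genes of a library's log2 difference from the other 2 of its group was 0.197 to 0.241. Markers of the retinal pigment epithelium were mostly at low RPKM. Of 19 such markers TTR was at 0 in all 6 libraries, and 12, among them RPE65, BEST1, RLBP1, TYR, TYRP1, PMEL and DCT, stayed under 0.5 RPKM in each. Low RPKM is not absence: 15 of the 19 could be tested on reads recovered from the RPKM values. Of these 5 rose and 3 fell after Anillin siRNA. OTX2 was at 3.15 to 4.04 RPKM, KRT18 at 100 to 138 RPKM and KRT8 at 8.11 to 9.94 RPKM. Of 11 blood cell markers and 11 markers of other epithelia and muscle, CD68 (12.6 to 16.8 RPKM) was the one above 0.5 RPKM. RPKM here was divided by the whole genomic span of a gene, introns included, so it compares libraries for a gene but not genes with each other. In bulk RNA, fewer cells of a cycle phase and less RNA per cell cannot be told apart.

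Anillin siRNA lowered 2209 genes and raised 1473 genes of the 12892 tested in 2N cells (17.1% and 11.4%, together 28.6%). Counts in the gene lists below are to be read beside these shares. The test was limma-trend on log2(RPKM + 0.5) over all 12 libraries, with a Benjamini-Hochberg adjusted p under 0.05. With only the 2 groups fitted 1410 genes were lower and 937 higher. The median size among the called genes was 0.26 on log2(RPKM + 0.5), and on that scale, which compresses low genes, 58 genes fell and 9 rose by at least 2-fold. On recovered reads, tested with limma-voom, 321 genes fell and 200 rose by at least 2-fold. Of the called genes 40.0% were higher. With quantile scaling 50.7% were higher (1951 against 1900 genes), so the balance of the directions depends on the scaling. On the reads recovered from the RPKM values, limma-voom called 3186 genes higher and 3260 lower of 22404 (14.2% and 14.6%). Of 3660 called genes that both fits tested, 96.0% were called in the same direction by voom.

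The promoters of 4 of the most lowered genes are shown because genes that fell far held a CHR or a CCAAT box in a larger share of promoters than the tested genes as a whole. CDC20 activates the anaphase-promoting complex, TOP2A untangles sister chromatids, CDCA3 is a mitotic regulator and RRM2 makes deoxynucleotides for S phase. Each runs 5′ to 3′ on the gene's strand, from 250 bases before the start to 10 bases after it, from RefSeq on GRCh38.p14. Capitals mark matches to 3 kinds of motif, each searched on both strands. The CHR was read as TTTGAA and, in its other spelling, as TTCGAA. The CCAAT box was read as those 5 letters. The E2F site was read as TTGGCGC, and also with the spelling TTCCCGC, and also with the spelling TTCGCGC. The positions were chr1:43358731-43358990 (plus strand) for CDC20, chr17:40417887-40418146 (minus strand) for TOP2A, chr12:6851277-6851536 (minus strand) for CDCA3 and chr2:10122489-10122748 (plus strand) for RRM2.
CDC20: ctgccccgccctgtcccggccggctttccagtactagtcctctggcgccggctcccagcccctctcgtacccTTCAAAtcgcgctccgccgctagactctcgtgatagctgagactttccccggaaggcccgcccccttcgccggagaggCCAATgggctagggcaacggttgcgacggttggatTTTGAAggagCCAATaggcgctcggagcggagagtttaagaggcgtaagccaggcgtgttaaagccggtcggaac
TOP2A: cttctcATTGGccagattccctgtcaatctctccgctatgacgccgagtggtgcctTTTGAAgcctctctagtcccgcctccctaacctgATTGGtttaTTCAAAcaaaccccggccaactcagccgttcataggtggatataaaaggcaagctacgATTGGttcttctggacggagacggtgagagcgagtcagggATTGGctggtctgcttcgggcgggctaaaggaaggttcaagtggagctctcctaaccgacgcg
CDCA3: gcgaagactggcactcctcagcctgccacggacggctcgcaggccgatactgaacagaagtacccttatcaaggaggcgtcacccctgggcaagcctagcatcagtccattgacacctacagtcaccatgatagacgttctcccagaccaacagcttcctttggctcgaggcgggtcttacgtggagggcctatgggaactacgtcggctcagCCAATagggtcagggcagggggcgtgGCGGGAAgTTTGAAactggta
RRM2: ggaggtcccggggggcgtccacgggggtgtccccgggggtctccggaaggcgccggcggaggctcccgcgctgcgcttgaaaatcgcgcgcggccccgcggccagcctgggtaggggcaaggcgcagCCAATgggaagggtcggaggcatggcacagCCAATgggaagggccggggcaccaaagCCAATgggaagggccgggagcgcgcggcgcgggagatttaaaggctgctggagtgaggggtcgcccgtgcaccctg

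CDC20 held 2 CHR and 2 CCAAT matches, with a CHR 65 bases and a CCAAT box 55 bases before the start. TOP2A held 2 CHR and 4 CCAAT matches. CDCA3 held 1 of each kind, its CHR beginning 3 bases before the start beside an E2F match. RRM2 held 3 CCAAT matches and neither of the other motifs. These are examples, and other promoters in the same window differed. Of lowered genes MKI67, ZWINT and PRC1 held a CHR, while KIF20A and CCNB1 held none but 2 CCAAT matches each. Of raised genes CHI3L1 and ANGPTL2 held 1 CHR each and SOX4 held 4 CCAAT matches, while LAMA5, DUSP2, CRABP2 and MIAT held no match. Over whole 300-base promoters, 53.3% of the 30 matched promoters of genes lowered at least 2-fold held a CHR, against 15.4% of all lowered genes, 8.60% of raised genes, 10.7% of the 7009 matched tested genes and 16.6% of all 27305 promoters in the table. A CCAAT box was in 70.0% of the genes lowered at least 2-fold, 45.9% of lowered genes, 33.7% of raised genes and 38.1% of tested genes. An E2F match was in 33.3%, 22.9%, 13.0% and 18.5% of the same sets. Of the mitotic genes listed below 72.9% of 59 promoters held a CHR, and of the replication genes 68.1% of 47 held an E2F match. In those 2 lists 3.39% and 12.8% of promoters had matches of different motifs that overlapped. The shares are descriptions of letters with no test, and a match is not a site shown to be bound.

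ANLN itself was at 1.88, 1.25 and 1.66 RPKM in control 2N and at 0.085, 0.0582 and 0.0395 RPKM in Anillin 2N. The groups were far apart in every library, and the mean level was 26.3-fold lower. The fitted change was -1.89 ± 0.10 (SE, n = 3 against 3, adjusted p = 5.08e-06) on log2(RPKM + 0.5). On recovered reads, where no pseudocount of that size enters, it was -4.65 ± 0.21 (limma-voom adjusted p = 2.09e-11), from 2255 to 6558 reads in control libraries and 57 to 259 in Anillin libraries. The gene lies at chr7:36389806-36453791 (plus strand, GENCODE 29 on GRCh38).

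Genes of G2 and mitosis fell almost as a block in 2N cells. Of 67 tested members 62 fell, none rose and 5 did not pass, and the median change was -0.72, against -0.02 over all tested genes. On recovered reads 66 of 68 fell, with a median of -1.41. In 65 of 67 members the 3 Anillin 2N libraries did not overlap the 3 control 2N libraries, while 41.4% of all tested genes did not overlap. The summed RPKM of the list, in which genes of high RPKM weigh most, was 147 to 202 in control 2N and 84.7 to 86.0 in Anillin 2N. It was 798 to 905 in control 4N and 167 to 179 in Anillin 4N. By this sum the Anillin 2N libraries were close to each other, and the control 2N libraries were spread more widely, with control replicate 2 lowest.

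Among the genes named with a mean of at least 2 RPKM in a group, the largest fall on log2(RPKM + 0.5) was in BIRC5. This gene encodes survivin, a subunit of the chromosomal passenger complex. It was at 5.92, 3.78 and 5.53 RPKM in control 2N and 0.879, 0.761 and 0.76 RPKM in Anillin 2N. The groups were far apart, and the change was -2.08 ± 0.14 (adjusted p = 1.97e-05). KIF20A, the kinesin that carries the passenger complex to the central spindle, went from 9.28, 5.94 and 7.89 RPKM to 1.81, 1.61 and 1.95 RPKM, a change of -1.82 ± 0.13 (adjusted p = 2.12e-05). MKI67, the Ki-67 proliferation antigen that coats mitotic chromosomes, went from 6.22, 4.33 and 5.40 RPKM to 1.15, 1.07 and 1.23 RPKM, a change of -1.80 ± 0.11 (adjusted p = 1.25e-05). In these genes too the groups were well separated.

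CDC20, whose promoter is printed above, was at 12.2, 7.35 and 11.3 RPKM in control 2N and 2.93, 2.66 and 2.79 RPKM in Anillin 2N. Its change was -1.68 ± 0.15 (adjusted p = 8.10e-05). CDCA3 fell by 1.57 ± 0.12 and TOP2A by 1.41 ± 0.07 on the log2 scale. TOP2A went from 5.94, 4.64 and 5.28 RPKM to 1.66, 1.65 and 1.71 RPKM, so the Anillin libraries were nearly equal. UBE2C, the E2 enzyme of the anaphase-promoting complex, fell by 1.31 ± 0.14. The kinase that drives mitotic entry also fell: CDK1 changed by -1.01 ± 0.10 and its partner CCNB1, cyclin B1, by -1.14 ± 0.11. FOXM1, a transcription factor for the mitotic genes, was at 7.25, 5.32 and 7.06 RPKM in control 2N and 2.51, 2.38 and 2.38 RPKM in Anillin 2N, a change of -1.26. CENPF, PLK1 and AURKA, a kinetochore protein and a pair of mitotic kinases, changed by -1.07, -0.70 and -0.65. KPNA2, an importin that peaks in G2, was at 10.2, 7.75 and 8.94 RPKM against 7.42, 7.46 and 7.28 RPKM and did not pass (change -0.26, adjusted p = 0.0535). Its fall did pass under 3 of 13 alternatives. These were quantile scaling (adjusted p = 0.0314), recovered reads (limma-voom adjusted p = 0.0122) and the fit without control replicate 2 (adjusted p = 0.00687).

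**Figure D1:**
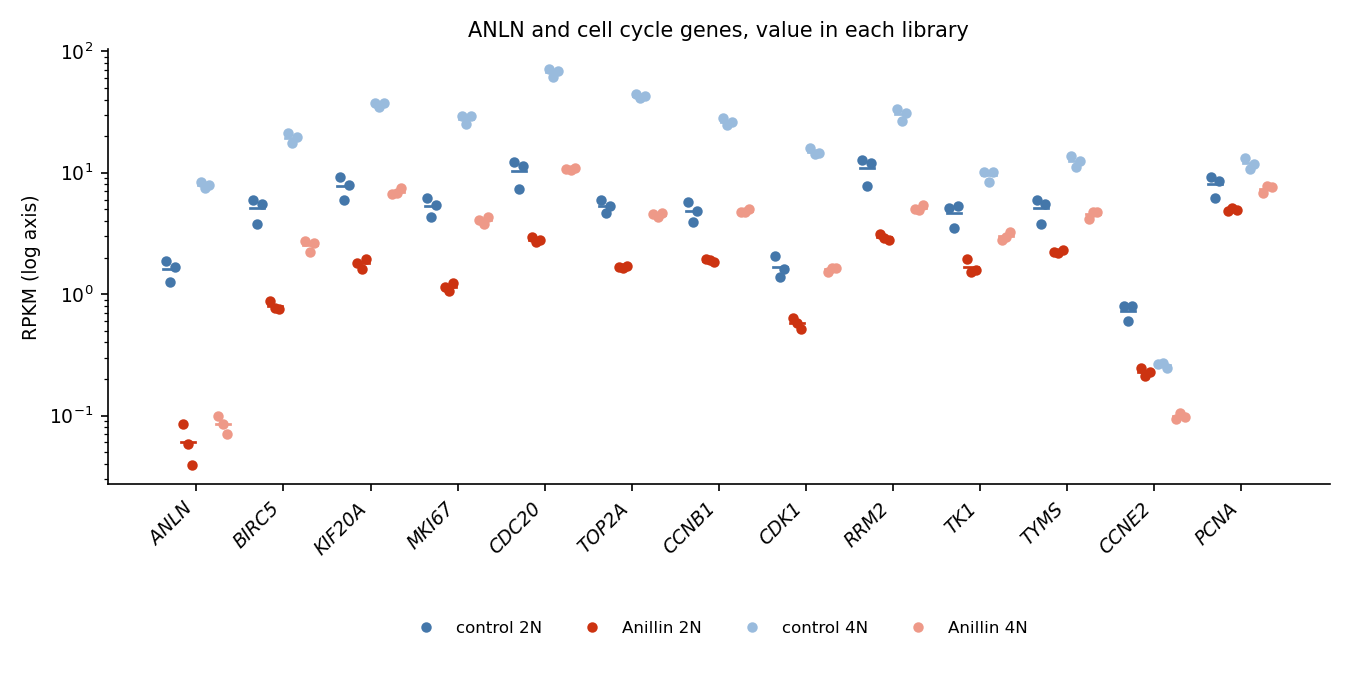
RPKM (log axis) of ANLN and 12 cell cycle genes in each library, as points, with the group mean as a line, for control 2N (dark blue), Anillin 2N (dark red), control 4N (light blue) and Anillin 4N (light red). In 2N cells the 3 Anillin libraries lie below the 3 control libraries for each gene shown, from BIRC5 (0.76 to 0.879 against 3.78 to 5.92 RPKM) to PCNA (4.79 to 5.16 against 6.21 to 9.23 RPKM).

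Genes of the G1/S transition and DNA replication fell as well, though less far. Of 42 tested members 40 fell, none rose and 2 did not pass (median -0.58). On recovered reads, which also reach long genes of low RPKM, 54 of 57 fell with a median of -1.02. RRM2, the regulated subunit of ribonucleotide reductase, was at 12.8, 7.71 and 12.0 RPKM in control 2N and 3.15, 2.88 and 2.77 RPKM in Anillin 2N. Among the members that passed the RPKM filter it fell furthest on log2(RPKM + 0.5), by 1.69 ± 0.16 (adjusted p = 0.000105). TK1, thymidine kinase, went from 5.12, 3.47 and 5.31 RPKM to 1.93, 1.53 and 1.57 RPKM, and TYMS, thymidylate synthase, from 5.95, 3.81 and 5.50 RPKM to 2.24, 2.20 and 2.29 RPKM. Their changes were -1.22 ± 0.14 and -1.005 ± 0.14. FEN1, the flap endonuclease of lagging-strand synthesis, fell by 0.997 ± 0.16. The replicative helicase fell together, from -0.98 in MCM3 to -0.71 in MCM6. CDC6 and CDT1, which load that helicase, changed by -0.92 and -0.70, and E2F1, an activator of this gene set, by -0.68. PCNA, the sliding clamp, went from 9.23, 6.21 and 8.59 RPKM to 4.79, 5.16 and 4.96 RPKM (change -0.62 ± 0.13, adjusted p = 0.0054). CCNE2, cyclin E2, fell from 0.792, 0.600 and 0.791 RPKM to 0.245, 0.211 and 0.228 RPKM, a change of -0.75 ± 0.06 (adjusted p = 5.89e-05), whereas its relative CCNE1 lay under the RPKM filter and changed by -0.10 on recovered reads. Control replicate 2 was the lowest control library for RRM2, TK1, TYMS, PCNA and CCNE2, and still lay above each Anillin library.

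Long genes that failed the RPKM filter showed the same classes on recovered reads. The 6 that fell furthest were CLSPN, MCM10, POLQ, CDK15, EXO1 and DDIAS. CLSPN, the claspin adaptor of the replication checkpoint, had 943, 394 and 1459 reads in control 2N and 253, 198 and 128 reads in Anillin 2N, and changed by -1.89 ± 0.17 (limma-voom adjusted p = 7.13e-08). MCM10, a replication initiation factor, changed by -1.84, POLQ, the DNA polymerase of end joining, by -1.73, and EXO1, an exonuclease of DNA repair, by -1.62. CDK15, a little-studied kinase, changed by -1.69 on no more than 214 reads a library, and DDIAS by -1.61.

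Some of the furthest falls were in copies of other genes. HMGN2P32 and HMGN2P6 are processed pseudogenes and changed by -1.67 and -1.32. Their reads may have come from HMGN2, which changed by -0.96, and the deposited values cannot tell them apart. SNORD48, a small nucleolar RNA inside another gene, rested on 3 to 24 reads a library. It changed by -1.37 (adjusted p = 0.0408), a call that was lost under 7 of the 12 alternatives that tested it, with an adjusted p of up to 0.113. ZWINT, a kinetochore protein, and PRC1, which bundles the microtubules of the central spindle, changed by -1.40 ± 0.14 and -1.34 ± 0.12. They were among the largest falls of genes with a mean of at least 2 RPKM in a group. Below that level ANLN and CEP55 fell further than both.

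Targets of p53 rose in 2N cells. Of 34 tested members 25 rose, 1 fell and 8 did not pass; the median was 0.32, and on recovered reads 37 of 49 rose. TP53INP1, an inducer of cell death and autophagy, went from 2.21, 3 and 2.13 RPKM to 4.20, 4.74 and 4.45 RPKM, a change of 0.76 ± 0.12 (adjusted p = 0.00159). BTG2, an antiproliferative factor, went from 3.06, 3.36 and 3.02 RPKM to 5.86, 5.75 and 5.43 RPKM, a change of 0.76 ± 0.06 (adjusted p = 3.61e-05). CDKN1A, which encodes p21, was at 25.9, 28.2 and 26.9 RPKM in control 2N and 44.4, 43.1 and 40.5 RPKM in Anillin 2N. No Anillin library overlapped a control library, the mean was 1.58-fold higher, and the change was 0.65 ± 0.06 (adjusted p = 0.000121). FDXR, a mitochondrial reductase, rose by 0.63 ± 0.06, TP53I3 by 0.52, PHLDA3, an inhibitor of AKT, by 0.51 and BAX, a pore-forming killer protein, by 0.43.

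MDM2, the ubiquitin ligase that limits p53, rose little: 2.21, 2.42 and 2.14 RPKM in control 2N and 2.77, 2.79 and 2.46 RPKM in Anillin 2N, a change of 0.20 ± 0.06 (adjusted p = 0.0212). Its call was lost under 5 of 13 alternatives, among them each of 4 fits without 1 library, with adjusted p between 0.0686 and 0.0788. PLK2, a polo-like kinase and a p53 target, fell from 116, 121 and 114 RPKM to 79.1, 89.6 and 91.7 RPKM, a change of -0.43 ± 0.08 (adjusted p = 0.00245).

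Beyond p21 the other G1 regulators moved less uniformly. Of 15 tested G1 cyclins, CDKs and CDK inhibitors 3 rose, 4 fell and 8 did not pass, and 2 fell in the fits without Anillin replicate 2 or 3 or control replicate 1 or 3. CDKN1C, the CDK inhibitor p57, rose from 0.572, 0.585 and 0.426 RPKM to 1.09, 0.899 and 1.01 RPKM, a change of 0.55 (adjusted p = 0.00925). CDKN3, a mitotic phosphatase of CDK1, fell by 0.93 (adjusted p = 0.000113). CDK2 and CDKN2C changed by -0.37 and -0.24, with adjusted p of 0.0211 and 0.0169, and lost their calls under 7 and 5 of 13 alternatives. CCND1, cyclin D1, was at 30.6, 26.0 and 30.3 RPKM against 32.5, 33.9 and 35.2 RPKM and did not pass (adjusted p = 0.0889), although the groups did not overlap. It passed as higher with quantile scaling (adjusted p = 0.0353) and on recovered reads (limma-voom adjusted p = 0.00901).

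Among proteins of the contractile ring and the RhoA switch, ANLN was the largest change, and most members did not follow it. Of 25 tested members 10 fell, 2 rose and 13 did not pass; with only the 2 groups fitted 6 fell. ARHGAP11A and RACGAP1, GTPase-activating proteins, went from 1.86, 1.38 and 1.67 RPKM to 0.814, 0.816 and 0.834 RPKM and from 1.14, 0.828 and 1.06 RPKM to 0.483, 0.435 and 0.419 RPKM. Their changes were -0.69 and -0.67, and both are known to peak in G2 and mitosis. RHOB, a small GTPase of endosomes and stress response, rose from 64.1, 54.3 and 71.0 RPKM to 98.8, 98.7 and 107 RPKM, a change of 0.69 ± 0.10 (adjusted p = 0.00117). MYL9, a myosin light chain, rose by 0.39. ACTB changed by -0.20 with an adjusted p of 0.0337 that rose to between 0.0624 and 0.118 in 5 of the 6 fits without 1 library.

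Septins, which bind Anillin at the furrow, were mixed: 4 of 9 rose, 2 fell and 3 did not pass, with 2 rises and 1 fall when only the 2 groups were fitted. SEPTIN4 rose from 0.404, 0.631 and 0.452 RPKM to 1.23, 1.26 and 1.07 RPKM, a 2.40-fold higher mean (change 0.77 ± 0.10, adjusted p = 0.000663). SEPTIN5 rose by 0.27 and SEPTIN11 fell by 0.25, while SEPTIN9, at -0.24, lost its call under 5 alternatives. Of 17 genes of the central spindle and midbody 9 fell, 1 rose and 7 did not pass. The falls were led by cell cycle genes: KIF20A, CEP55, PRC1 and KIF23 changed by -1.82, -1.49, -1.34 and -0.72. CEP55, which recruits the abscission machinery, went from 2.38, 1.42 and 2.08 RPKM to 0.403, 0.339 and 0.354 RPKM. Of 19 centrosome genes 9 fell and none rose, led by PLK4, the master kinase of centriole duplication (change -0.49), with 4 falling when only the 2 groups were fitted.

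A pair of lists added after the values were seen followed the same side. Of 11 alpha and beta tubulins 6 fell and none rose (median -0.27), with 3 to 8 falls over the alternatives and the fewest with only the 2 groups fitted. TUBA1B, the most studied alpha tubulin, went from 330, 225 and 331 RPKM to 152, 136 and 141 RPKM, a change of -1.02 ± 0.14 (adjusted p = 0.000648). Of 9 high mobility group proteins 5 fell and 2 rose. HMGN2, a nucleosome-binding protein, went from 103, 79.1 and 98.0 RPKM to 50.7, 48.0 and 43.5 RPKM, and HMGB2, a DNA-bending protein of proliferating cells, changed by -0.82. HMGA2, a chromatin protein of undifferentiated cells, rose by 0.32.

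**Figure D2:**
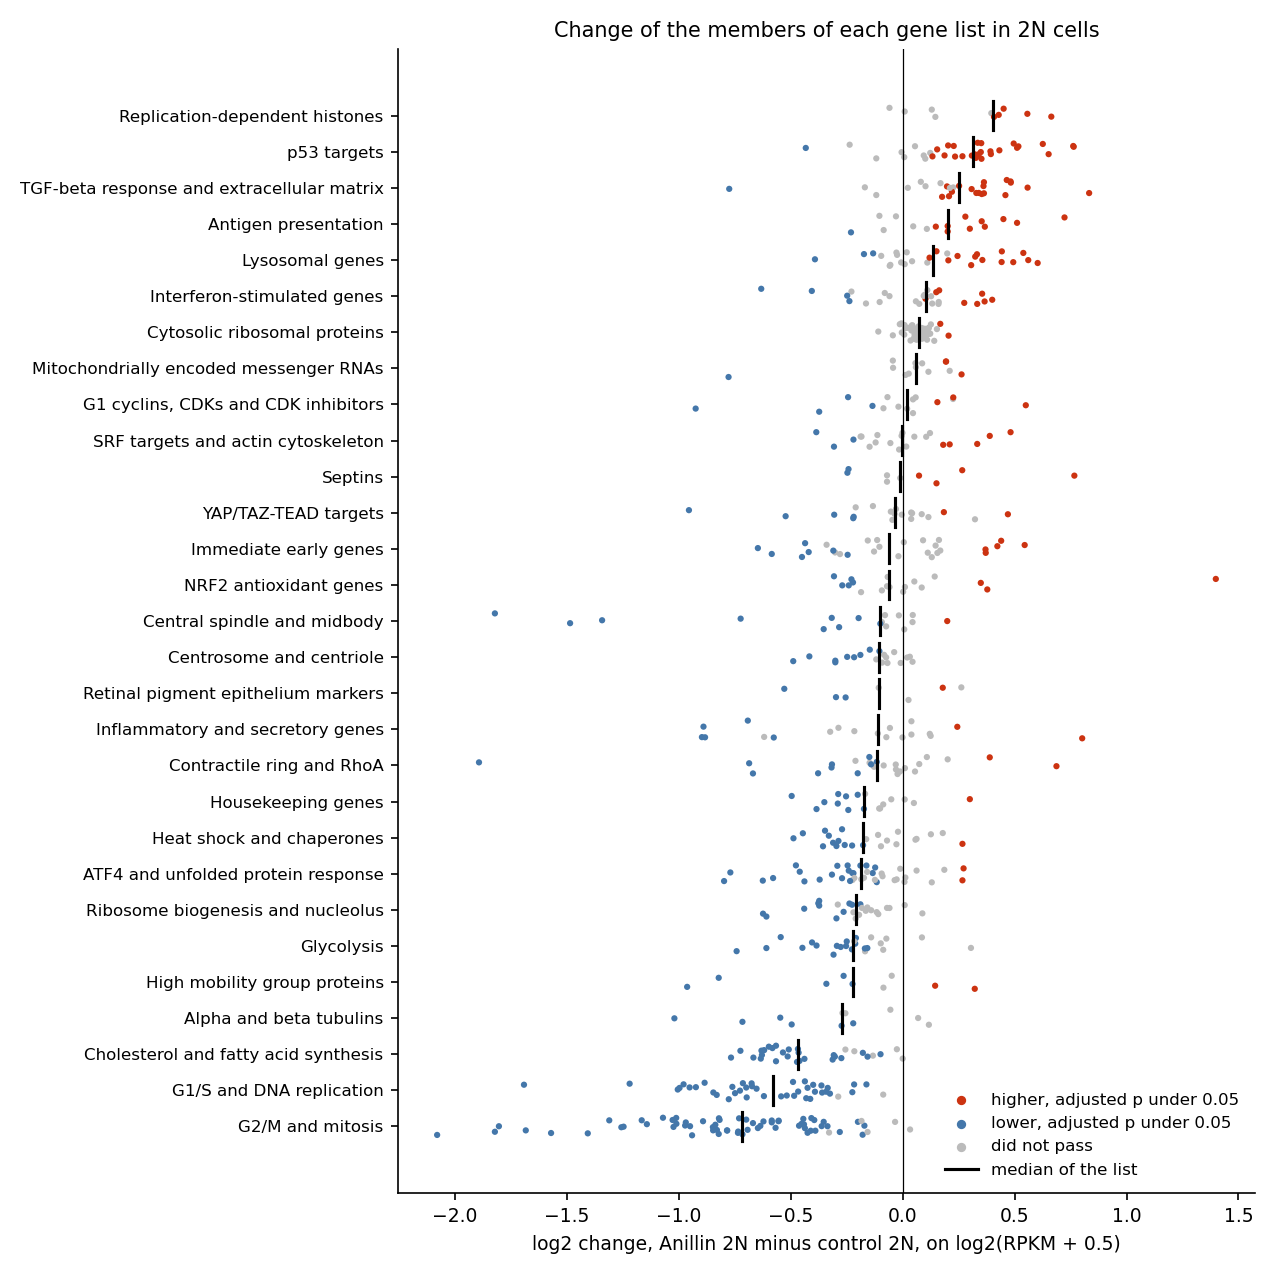
Change of each tested gene of the 29 gene lists with at least 5 tested members in 2N cells, as log2(RPKM + 0.5) in Anillin 2N minus control 2N, with a black line at the list's median; red points passed as higher, blue points passed as lower and grey points did not pass. The lists run from a median of -0.72 for G2 and mitosis, where 62 of 67 fell, to 0.40 for replication-dependent histones, where 5 of 10 rose.

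Cholesterol and fatty acid synthesis was the clearest change outside the cell cycle. These enzymes are controlled together by the SREBP transcription factors. Of 31 tested members 26 fell, none rose and 5 did not pass (median -0.47). FADS1, a fatty acid desaturase, was at 5.50, 5.46 and 5.42 RPKM in control 2N and 3.08, 2.95 and 2.98 RPKM in Anillin 2N. The replicates were nearly equal within each group, and the change was -0.77 ± 0.03 (adjusted p = 1.73e-06). INSIG1, the sterol sensor that holds SREBP back, went from 19.4, 17.3 and 23.0 RPKM to 12.6, 10.8 and 11.9 RPKM, a change of -0.72 ± 0.11 (adjusted p = 0.00115). HMGCS1, an early enzyme of cholesterol synthesis, went from 7.63, 7.58 and 8.10 RPKM to 5.04, 4.71 and 4.79 RPKM, a change of -0.63 ± 0.05 (adjusted p = 5.30e-05). SCD, the stearoyl-CoA desaturase, changed by -0.63, MSMO1 by -0.63, SQLE, squalene epoxidase, by -0.46 and FASN, fatty acid synthase, by -0.54.

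Glycolysis and the biosynthetic stress genes fell by smaller amounts. Of 24 genes of glycolysis and its hypoxia response 16 fell and none rose (median -0.22), with 7 falls when only the 2 groups were fitted and 9 or 10 without Anillin replicate 2 or 3 or control replicate 3. LDHA, lactate dehydrogenase, went from 96.6, 96.0 and 106 RPKM to 74.5, 63.3 and 58.2 RPKM, a change of -0.61 (adjusted p = 0.000665). TPI1, triosephosphate isomerase, changed by -0.55 and BNIP3, a mitophagy receptor induced by hypoxia, by -0.74. GAPDH was at 1140, 1060 and 1240 RPKM against 1160, 995 and 923 RPKM and did not pass (adjusted p = 0.137). It passed as lower with quantile scaling (adjusted p = 0.032) and without Anillin replicate 1 (adjusted p = 0.0143).

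Of 39 genes of ATF4 and the unfolded protein response 21 fell and 2 rose (median -0.19). DDIT4, an inhibitor of mTORC1, went from 47.8, 41.8 and 54.0 RPKM to 28.5, 25.6 and 27.6 RPKM, a change of -0.80 ± 0.08 (adjusted p = 0.000156). HSP90B1, the chaperone GRP94 of the endoplasmic reticulum, changed by -0.63, SLC7A5, a leucine transporter, by -0.77 and DDIT3, the stress factor CHOP, by -0.58. Of 23 heat shock genes and chaperones 12 fell and 1 rose, led by HSPD1 and HSP90AA1 at -0.49 and -0.45, with 6 falls when only the 2 groups were fitted and 7 without Anillin replicate 2 or 3 or control replicate 1 or 3. Of 25 ribosome biogenesis genes 11 fell and none rose, led by RRS1 and NCL, nucleolin, at -0.62 and -0.61; the falls numbered 6 with only the 2 groups fitted, 7 without Anillin replicate 3 or control replicate 1 or 3, 19 without control replicate 2 and 18 of 29 on recovered reads. Of 44 cytosolic ribosomal protein genes 2 rose and none fell (median 0.07). The number of rises depended on the settings, from 0 with only the 2 groups fitted to 6 with median-of-ratios scaling, 10 on recovered reads and 12 with quantile scaling, and from 0 (without Anillin replicate 1 or control replicate 3) to 6 (without Anillin replicate 3) when 1 library was left out. MYC, a driver of ribosome production, fell from 19.6, 20.2 and 23.8 RPKM to 13.4, 13.5 and 14.9 RPKM (change -0.58 ± 0.08, adjusted p = 0.000663).

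Among the genes named with a mean of at least 2 RPKM in a group, the largest rise described on log2(RPKM + 0.5) was in HMOX1. A ribosomal RNA pseudogene copy with a larger value is not described. HMOX1 encodes heme oxygenase, which breaks down heme. It was at 3.45, 3.65 and 4.20 RPKM in control 2N and 12.3, 10.1 and 9.90 RPKM in Anillin 2N, a 2.86-fold higher mean. Each Anillin library lay above each control library, and the change was 1.40 ± 0.10 (adjusted p = 2.12e-05). HMOX1 is a known target of NRF2. Over all tested genes 11.4% rose and 17.1% fell, the shares to set beside the counts of NRF2 genes. Of 18 tested NRF2 genes 3 rose, 5 fell and 10 did not pass, a count that was not stable: 2 fell with only the 2 groups fitted, 3 without Anillin replicate 2 or control replicate 1 or 3, and on recovered reads 9 of 25 rose and 7 fell. FTH1, the ferritin heavy chain, and TKT, transketolase, were the other rises, at 0.38 and 0.35, and TXN, thioredoxin, was at -0.31 with a call that was lost under 2 alternatives.

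Secreted and matrix proteins were among the other large rises. CHI3L1, a secreted chitinase-like protein, went from 0.655, 0.898 and 0.725 RPKM to 2.16, 2.30 and 2.10 RPKM, a change of 1.10 ± 0.10 (adjusted p = 6.85e-05). SCG2, a granin of secretory granules, went from 0.678, 0.905 and 0.981 RPKM to 2.27, 2.53 and 2.29 RPKM, a change of 1.09 ± 0.13 (adjusted p = 0.000325). LAMA5, the laminin alpha-5 chain of basement membranes, went from 0.773, 1.01 and 0.887 RPKM to 2.24, 2.21 and 2.35 RPKM, a change of 0.996 ± 0.06 (adjusted p = 1.58e-05). In each of these genes the groups were well separated. ANGPTL2, a secreted angiopoietin-like protein, rose by 0.97, DUSP2, a phosphatase of MAP kinases, by 0.95 and CRABP2, a carrier of retinoic acid, by 0.93. LMBR1L, a membrane receptor, rose by 0.90, SOX4, a developmental transcription factor, by 0.85 and MIAT, a long noncoding RNA, by 0.83.

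Among matrix genes and TGF-beta targets 18 of 27 tested members rose, 1 fell and 8 did not pass (median 0.25); with only the 2 groups fitted 12 rose. SPARC, a collagen-binding matrix protein, went from 46.3, 53.6 and 44.0 RPKM to 80.7, 85.2 and 91.1 RPKM, a change of 0.83 ± 0.09 (adjusted p = 0.000186). COL4A1, COL5A2 and COL1A1, collagen chains, rose by 0.56, 0.48 and 0.48, and MMP2, a matrix protease, by 0.46. THBS1, thrombospondin, went the other way, from 166, 161 and 145 RPKM to 76.1, 87.7 and 115 RPKM (change -0.78 ± 0.14, adjusted p = 0.00284). Its Anillin libraries were the more widely spread, with replicate 3 highest.

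Of 16 antigen presentation genes 10 rose and 1 fell. HLA-B, a class I heavy chain, went from 63.2, 69.5 and 62.7 RPKM to 112, 103 and 108 RPKM, a change of 0.72 ± 0.05 (adjusted p = 2.10e-05). HLA-C, whose near-identical sequence can share reads with HLA-B, rose by 0.37. TAP1, the peptide transporter, rose by 0.45 and B2M, the light chain, by 0.30. Of 28 lysosomal genes 14 rose and 3 fell (median 0.14). PSAP, the precursor of the saposins, went from 54.1, 66.1 and 53.5 RPKM to 87.8, 85.7 and 89.9 RPKM, a change of 0.60 ± 0.08 (adjusted p = 0.000469), and the cathepsins CTSF, CTSA and CTSK rose by 0.56, 0.49 and 0.44. Of 10 tested histone genes of the replication-dependent clusters 5 rose and none fell (median 0.40), led by H2AC7 at 0.66 and H2AC6 at 0.56. These messages normally lack a poly(A) tail, the labels name both a messenger RNA kit and ribo-depleted RNA, and 12 of the 22 members in the table were too low to test.

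**Figure D3:**
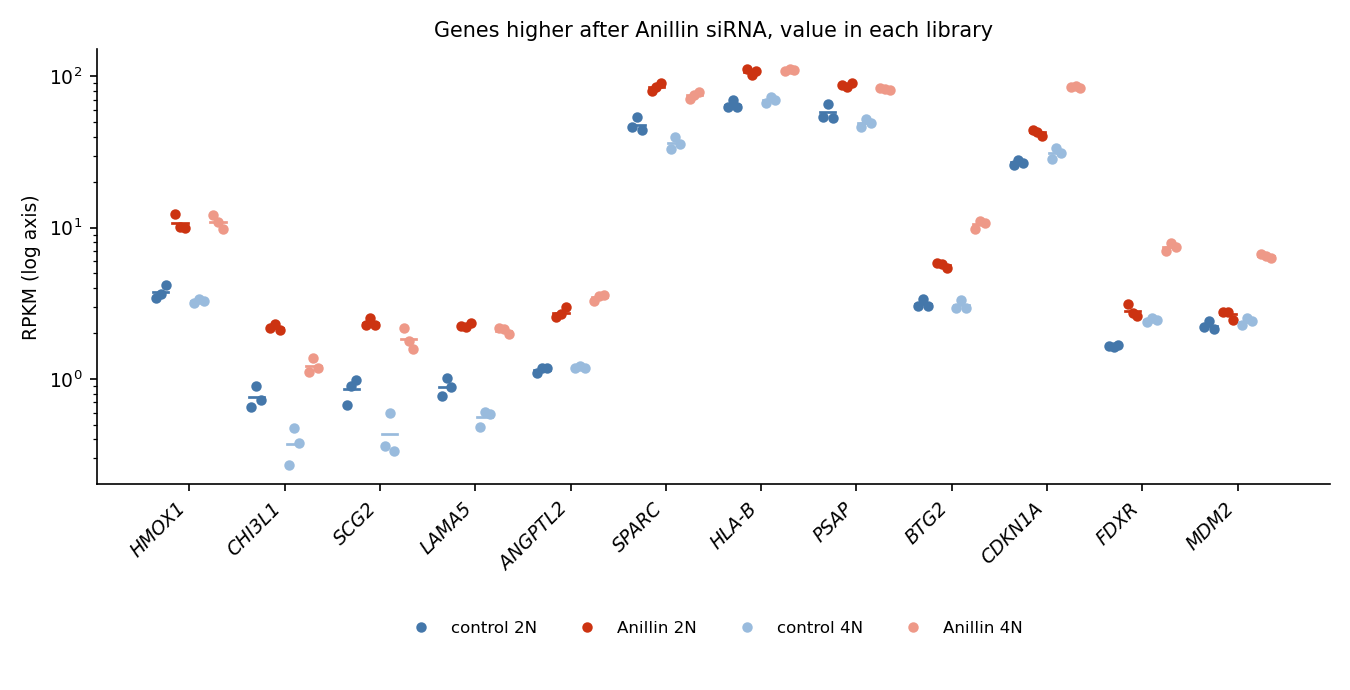
RPKM (log axis) of 12 genes that rose in 2N cells, in each library as points with the group mean as a line, coloured as control 2N (dark blue), Anillin 2N (dark red), control 4N (light blue) and Anillin 4N (light red). HMOX1 rises to a similar level in both fractions (9.90 to 12.3 RPKM in Anillin 2N and 9.74 to 12.1 RPKM in Anillin 4N), whereas CDKN1A stops at 40.5 to 44.4 RPKM in 2N and reaches 83.9 to 86.9 RPKM in 4N.

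Immune and signalling targets went both ways. Over all tested genes 11.4% rose and 17.1% fell, and the interferon falls and inflammatory rises below lay near those shares. Of 27 interferon-stimulated genes 8 rose, 4 fell and 15 did not pass, with 5 rises when only the 2 groups were fitted or without control replicate 1. IFI44L and IRF9, a subunit of the interferon-activated complex, rose by 0.40 and 0.37, while IFIT2 and OAS3 fell by 0.63 and 0.41. Of 19 inflammatory and secretory genes 5 fell, 2 rose and 12 did not pass, while 9 fell without Anillin replicate 3 and 10 of 26 on recovered reads. IL6, interleukin-6, went from 9.88, 9.23 and 11.9 RPKM to 5.79, 5.03 and 5.24 RPKM, a change of -0.88 ± 0.09 (adjusted p = 0.000156). CXCL2, a neutrophil chemokine, went from 1.73, 1.24 and 2.31 RPKM to 0.698, 0.629 and 0.766 RPKM (change -0.89 ± 0.14, adjusted p = 0.00127), and CSF2, the growth factor GM-CSF, changed by -0.90 (adjusted p = 0.00954). IL1B, interleukin-1 beta, changed by -0.69. C3, complement component 3, rose from 0.423, 0.647 and 0.427 RPKM to 1.25, 1.26 and 1.20 RPKM, a change of 0.80 (adjusted p = 0.000135).

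Targets of YAP and TAZ, the effectors of the Hippo pathway, did not move as a list: of 20 tested members 5 fell, 2 rose and 13 did not pass (median -0.03), and neither rise passed without Anillin replicate 2 or 3 or control replicate 3. ANKRD1, a nuclear protein and a strongly responsive target, fell from 119, 124 and 122 RPKM to 56.2, 66.8 and 65.0 RPKM, a change of -0.95 ± 0.10 (adjusted p = 0.000201). AMOTL2 fell by 0.52. The rises in this list lay near the 11.4% of all tested genes that rose, while 17.1% of all tested genes fell. CCN2, at 238, 255 and 165 RPKM against 215, 234 and 252 RPKM, and CCN1, at 204, 223 and 168 RPKM against 197, 203 and 209 RPKM, did not pass (adjusted p = 0.579 and 0.778). For both genes the groups overlapped, and control replicate 3 was the lowest library.

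Of 21 SRF targets and actin cytoskeleton genes 5 rose, 3 fell and 13 did not pass, with 3 rises without Anillin replicate 1 and 5 falls without Anillin replicate 3. The falls lay near the 17.1% of all tested genes that fell, and 11.4% of all tested genes rose. The list included TAGLN, transgelin, at 0.48 (adjusted p = 0.00038). Of 28 immediate early genes 5 rose, 7 fell and 16 did not pass. The balance was not stable: 4 rose and 4 fell with only the 2 groups fitted or without Anillin replicate 1, 4 fell without Anillin replicate 2, and 6 rose and 3 fell without control replicate 3. DUSP5, a nuclear phosphatase of ERK, and EGR1 changed by -0.65 and -0.44, while KLF4, KLF2 and JUND rose by 0.55, 0.44 and 0.42.

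Mitochondrial ribosomal RNA was higher in the Anillin libraries. MT-RNR2 was at 550, 603 and 474 RPKM in control 2N and 1090, 1030 and 763 RPKM in Anillin 2N, a change of 0.81 ± 0.15 (adjusted p = 0.00299). MTRNR2L8, a nuclear copy whose reads may be those of MT-RNR2, changed by 0.81. The 2 mitochondrial ribosomal RNAs took 0.09 to 0.11% of reads in control 2N and 0.15 to 0.21% in Anillin 2N. Of 13 mitochondrially encoded messenger RNAs 3 rose and 1 fell, and each of the 4 calls was lost in at least 4 of 13 alternatives. The share of all mitochondrial reads was 3.69 to 3.90% in control 2N and 3.99 to 4.54% in Anillin 2N. Of 17 housekeeping genes 9 fell and 1 rose (median -0.17), with 4 falls when only the 2 groups were fitted and 5 without control replicate 1 or 3. The part of rRNA content in these results was not tested.

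On recovered reads the genes under the RPKM filter that rose furthest, with a mean of at least 100 reads in 1 group, were MIR663AHG, CFI, IL6R, SERPINF1, HR and CLDN1. CFI, complement factor I, had 90, 74 and 105 reads in control 2N and 373, 286 and 117 reads in Anillin 2N, a change of 1.81 ± 0.16 (limma-voom adjusted p = 7.23e-08). Control replicate 3 was the deepest 2N library and Anillin replicate 3 the shallowest. IL6R, the interleukin-6 receptor, had 95, 61 and 156 reads against 351, 290 and 188 reads, a change of 1.73 ± 0.12 (adjusted p = 2.77e-09). SERPINF1, which encodes the pigment epithelium-derived factor, changed by 1.70, HR, a transcriptional corepressor, by 1.59 and CLDN1, a tight junction claudin, by 1.48. MIR663AHG, a repeat-rich noncoding gene, changed by 1.95 on 78 to 442 reads a library.

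Most genes changed in 2N cells also changed in the same direction in 4N cells, where 51.5% of tested genes were called, 31.5% lower and 20.0% higher. Of the genes lowered in 2N 85.5% (1888) were lowered in 4N, and of those raised in 2N 77.9% (1148) were raised in 4N. The converse shares were 46.5% of the genes lowered in 4N and 44.5% of those raised in 4N. The 2N and 4N comparisons share no library. A test of the difference of the siRNA effect between 4N and 2N passed for 2019 genes (15.7%), with the 4N effect lower in 1383 (10.7%) and higher in 636 (4.93%). On recovered reads the balance was reversed, with the 4N effect lower in 1227 and higher in 2294 of 22404 genes. The balance of these directions thus depends on the scale.

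In the mitotic list the fall was deeper in 4N for 64 of 67 members (median change -1.99 in 4N against -0.72 in 2N), and on recovered reads for 61 of 68 (medians -2.48 and -1.41). BIRC5 and KIF20A were the furthest falls in 2N among the genes named with a mean of at least 2 RPKM in a group. They did not pass as different, at -0.64 and -0.49 (adjusted p = 0.0583 and 0.10). In the replication list 18 of 42 passed, 17 of them deeper in 4N; for TK1, TYMS and PCNA the differences were -0.31, -0.35 and -0.03 and did not pass. Of 34 p53 targets 22 had a higher effect in 4N, among them CDKN1A by 0.79, BTG2 by 0.87, FDXR by 0.80 and MDM2 by 1.07. They include PLK2 and GADD45A, which did not pass as changed in 4N. MDM2 reached 6.28 to 6.72 RPKM in Anillin 4N, from 2.27 to 2.52 RPKM in control 4N.

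Outside the cell cycle and p53 lists the share that passed the difference test varied. In the ATF4 and unfolded protein response list it was 17 of 39, with a higher effect in 4N for 6 and a lower one for 11, in heat shock genes 7 of 23 and in interferon-stimulated genes 5 of 27, each a share above the 15.7% of all genes. In cholesterol and fatty acid synthesis 4 of 31 passed the difference test, and the medians were -0.47 in 2N and -0.47 in 4N. In the matrix list it was 3 of 27, in antigen presentation 1 of 16, in lysosomal genes 2 of 28 and in glycolysis 2 of 24, each a share under that of all genes. This held on log2(RPKM + 0.5) only. On recovered reads these lists and cholesterol and fatty acid synthesis, except glycolysis, lay above the share of all genes. There the 4N effect was lower for 1 and higher for 8 of 32 cholesterol and fatty acid genes. These counts were 2 and 6 of 35 in the matrix list and 0 and 6 of 29 in lysosomal genes. They were 0 and 3 of 17 in antigen presentation and 1 and 3 of 26 in glycolysis. The difference for HMOX1 was 0.19 (adjusted p = 0.40) and for HLA-B -0.07 (adjusted p = 0.585). A p that misses the threshold does not show that the effects were alike.

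Some genes changed in 2N while their effect in 4N was smaller or of the other sign. Among genes called in 2N, 105 of the lowered and 93 of the raised had a difference test that passed with the opposite sign, and 70 genes were called in opposite directions in 2N and 4N. The examples named here were chosen after their values were seen, by the size of the 2N change. IL1B was at 4.58, 4.44 and 4.96 RPKM in control 2N, 2.88, 2.5 and 2.71 RPKM in Anillin 2N, 2.32, 2.45 and 2.21 RPKM in control 4N and 1.91, 2.23 and 2.44 RPKM in Anillin 4N. Its level was highest in control 2N, and the difference of the effects was 0.62 (adjusted p = 0.00408). TM7SF2, a sterol reductase, went from 4.29, 4.35 and 4.14 RPKM to 2.85, 2.34 and 2.33 RPKM in 2N, and was at 2.05, 2.64 and 2.34 RPKM against 2.81, 3.02 and 2.56 RPKM in 4N, where it did not pass (adjusted p = 0.064); the difference was 0.88 (adjusted p = 0.00148).

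ANKRD1 was at 48.0, 57.8 and 47.9 RPKM in control 4N and 33.6, 40.6 and 42 RPKM in Anillin 4N, so its control 2N libraries stood above every other library. The difference was 0.56 (adjusted p = 0.0299), and it was lost under 8 of 18 alternatives. DDIT4 and DDIT3 differed by 0.50 and 0.46, and for DDIT4 the adjusted p was 0.0553 when control 4N replicate 1 was left out. SNHG3, a host gene of small nucleolar RNAs, and SLC30A1, a zinc exporter, fell by 0.64 and 0.59 in 2N and differed by 0.40 and 0.28, calls that were lost under 11 and 10 alternatives. ID2, an inhibitor of helix-loop-helix factors, rose from 11.8, 13.5 and 11.6 RPKM to 19.5, 17.4 and 16.4 RPKM in 2N and was at 22.2, 24.2 and 21.8 RPKM against 23.7, 23.5 and 22.6 RPKM in 4N. Its difference was -0.48 (adjusted p = 0.015), lost with quantile scaling (adjusted p = 0.0865). WSB1, a ubiquitin ligase subunit, and AC007228.1, a noncoding RNA, rose by 0.51 and 0.50 in 2N and differed by -0.39 and -0.39, calls lost under 9 and 12 alternatives.

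PLK2 differed by 0.37 (adjusted p = 0.0445), with 86.9, 93.2 and 90.3 RPKM in control 4N and 77.0, 89.9 and 92.4 RPKM in Anillin 4N. CCNE2 differed by 0.40 (adjusted p = 0.0149) on the log2(RPKM + 0.5) scale. Its levels in 4N were low (0.247 to 0.271 against 0.0935 to 0.105 RPKM), and on recovered reads its difference was 0.37 and did not pass (limma-voom adjusted p = 0.286). For IL6 and CXCL2 the differences were 0.40 and 0.56 and did not pass (adjusted p = 0.0641 and 0.0815).

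**Figure D4:**
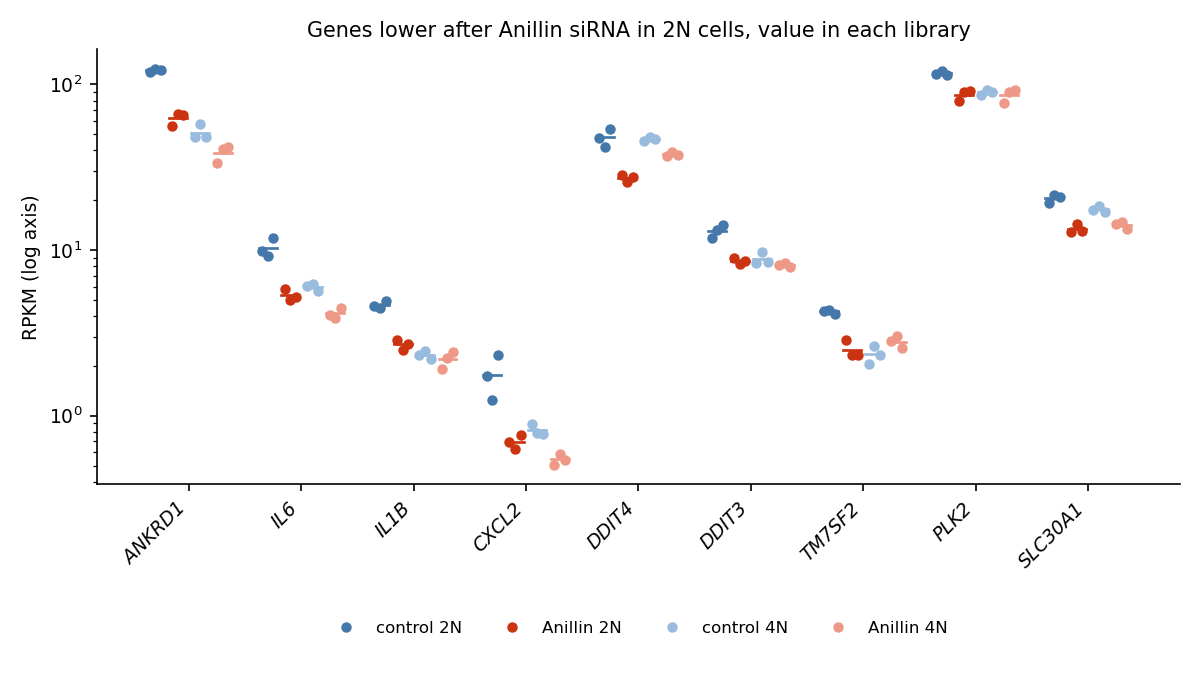
RPKM (log axis) of 9 genes that fell in 2N cells, in each library as points with the group mean as a line, coloured as control 2N (dark blue), Anillin 2N (dark red), control 4N (light blue) and Anillin 4N (light red). For ANKRD1 and IL1B the control 2N libraries (119 to 124 and 4.44 to 4.96 RPKM) lie above the other 9 libraries.

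**Figure D5:**
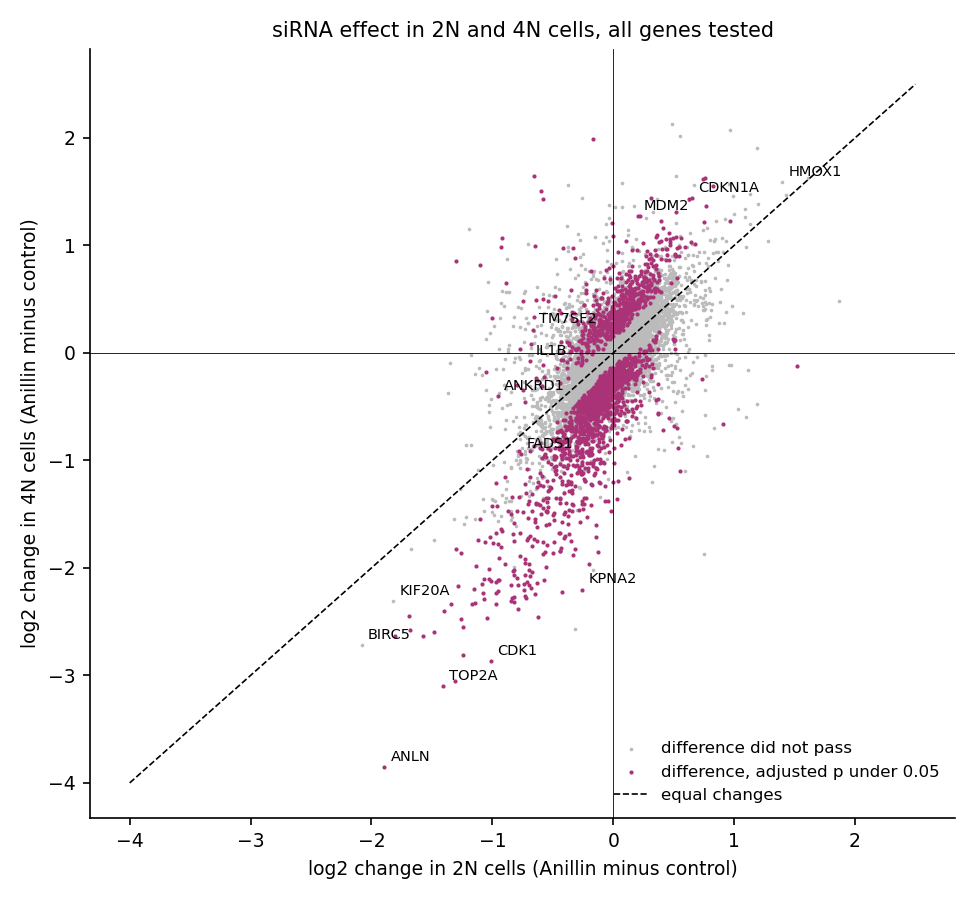
Change on log2(RPKM + 0.5) after Anillin siRNA in 2N cells (x axis) and in 4N cells (y axis) for the 12892 tested genes, with purple points where the difference between the fractions passed (2019 genes) and a dashed line at equal changes. ANLN (-1.89 in 2N), BIRC5 (-2.08) and KIF20A (-1.82) lie far to the left, and HMOX1 (1.40) lies far to the right near the dashed line.

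Of all tested genes 962 were called in 4N with a difference that passed while not called in 2N. KPNA2, whose fall in 2N passed under 3 of 13 alternatives, is an example. It was at 55.5 to 63.0 RPKM in control 4N against 12.0 to 13.4 RPKM in Anillin 4N, a difference of -1.94 (adjusted p = 1.86e-05). CDCA8, a passenger complex subunit, FAM83D, a spindle protein, and PIF1, a DNA helicase, fell in 2N too, PIF1 by a call lost under 10 of 13 alternatives (adjusted p = 0.0478, up to 0.158). They differed by -1.84, -1.80 and -1.76, with control 2N levels of 0.658 to 0.932, 0.557 to 0.766 and 0.417 to 0.578 RPKM. At such levels the pseudocount compresses a change in 2N cells. On recovered reads their 2N changes were -1.19, -0.84 and -0.44, and the differences -1.70, -1.84 and -1.92.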

How the data were processed

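The authors deposited 1 table of RPKM values for 57773 genes in 12 libraries of total or messenger RNA, on which the labels differ. The submitters' processing notes list CASAVA 1.8.2, TopHat2, edgeR and hg19 but not what each was used for. The annotation and the read counter, with its use of strand, were not given in the sources used here. Overlapping genes may therefore share reads. The deposited RPKM equalled whole reads divided by genomic span and library total: whole reads, within 0.01 read, were recovered for 100% of the 38571 genes above 0 (29239 by their GENCODE 29 span, 9332 by the common divisor of their values). Recovered depth was 17412742 to 61760450 reads a library.

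Groups came from the labels. Genes that reached 0.5 RPKM in 3 or more libraries were tested on log2(RPKM + 0.5) with limma 3.58.1 (R 4.3.3), with all 12 libraries in the fit and Benjamini-Hochberg adjustment. A fold change on this scale understates the change of low genes. Alternatives were pseudocounts of 0.1 and 1, no filter, median-of-ratios and quantile scaling, the 2 groups alone, voom on recovered reads (at least 10 reads in at least 3 libraries) and each library left out. In simulated data the RPKM fit recovered 83.8% of genes given a log2 change of 1 and 68.4% of those given 0.5. It called 0.02% of unchanged genes. The simulated spread was a fixed setting not taken from these libraries, so these shares need not hold in the data. Long genes pass the RPKM filter less often: 70.7% of genes tested on reads with a span up to 10 kb passed, against 30.1% over 50 kb.

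Named genes are the 14 largest rises and falls with a mean RPKM of at least 2, up to 4 per list, 6 each way for the difference between fractions and for recovered reads, 15 fixed genes, and those larger in 2N added after their values were seen; other list members are examples picked with values in view. A ribosomal RNA pseudogene among the rises and a few other named genes are not reported here. Members and all 31 lists were chosen with earlier results of these data known. Coordinates are from GENCODE 29 (GRCh38) and promoters from RefSeq (GRCh38.p14, 7009 of 12892 tested genes matched by symbol).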

Additional observations from a re-analysis of the deposited data

Results flagged for a closer look

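The effect of Anillin siRNA differed between 4N and 2N cells, by the difference test over all genes (limma, adjusted p under 0.05), for 65 of the genes named by rule. Each value below is the log2 effect in 4N minus that in 2N. Of the 65 calls 34 held under all 18 alternatives. The other 31 were lost under at least 1 alternative. RRM2, FEN1, TP53INP1, MIAT, ANGPTL2, ANKRD1, SEPTIN11, TUBG1, CETN3, EZR, TUBA1B, HMGN2, SNORD20, RRAD, RPS27P2, SNHG3, SLC30A1, WSB1 and AC007228.1 were lost under 8 to 14 of them, among them RRM2 under 11 (adjusted p up to 0.122), FEN1 under 9 (up to 0.108), TP53INP1 under 11 (up to 0.102), MIAT under 10 (up to 0.0934) and ANGPTL2 under 10 (up to 0.0878). CDC20, CDCA3, CEP55, CDKN3, IFIT2, FADS1, DDIT4, DKC1, YWHAZ, CCNE2, MIR4477B and ID2 were lost under 1 to 4.

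Most cell cycle genes fell further in 4N, where cycle phase and the effect of the siRNA cannot be told apart. The differences were -1.70 for TOP2A, -1.75 for UBE2C, -1.85 for CDK1, -1.18 for CCNB1, -0.83 for MKI67, -0.90 for CDC20, -1.06 for CDCA3, -1.0 for ZWINT and -0.99 for PRC1. They were -1.94 for KPNA2, -1.84 for CDCA8, -1.80 for FAM83D, -1.76 for PIF1, -1.11 for CEP55, -1.56 for KIF23, -1.96 for ANLN, -1.39 for ARHGAP11A and -1.37 for RACGAP1. Among S phase genes and CDK regulators they were -0.76 for RRM2, -0.77 for FEN1, -0.88 for CDKN3, -0.85 for CDK2 and -1.10 for CDKN2C.

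Cytoskeleton and chromatin genes also fell further in 4N: -1.06 for PLK4, -0.64 for TUBG1, -0.74 for ODF2, -0.18 for CETN3, -1.01 for TUBB, -0.70 for TUBA1B, -1.03 for TUBA1C, -1.24 for TUBB4B, -0.46 for HMGN2, -1.20 for HMGB2, -1.07 for HMGB3, -0.20 for SEPTIN11 and -0.30 for EZR. Smaller differences of this sign were -0.43 for HSP90AA1, -0.60 for DKC1, -0.28 for YWHAZ, -0.35 for OAS3 and -0.18 for FADS1.

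Genes that rose more in 4N, with a call that held under all 18 alternatives, were MDM2 (1.07), BTG2 (0.87), FDXR (0.80) and CDKN1A (0.79). TP53INP1 (0.61), MIAT (0.73) and ANGPTL2 (0.26) rose more in 4N by calls that did not hold. RRAD, a small GTPase, and SNORA31, a small nucleolar RNA, differed by 1.13 and 0.94 without a call in 2N (adjusted p = 0.368 and 0.31). So did SNORD20 (2.16), on 2 to 10 reads a 2N library, MIR4477B (1.20) and the pseudogene RPS27P2 (1.09), which had at most 18 reads in a 2N library.

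Genes that fell in 2N and less or not at all in 4N were TM7SF2 (0.88), IL1B (0.62), ANKRD1 (0.56), DDIT4 (0.50), DDIT3 (0.46), SNHG3 (0.40), CCNE2 (0.40), IFIT2 (0.38) and SLC30A1 (0.28). Genes that rose in 2N and were not called in 4N were ID2 (-0.48), WSB1 (-0.39) and AC007228.1 (-0.39).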

How the results depend on the processing

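Of 148 named genes called in 2N cells on RPKM, 145 were tested in all 13 alternatives and 120 of these held in each. The 12 genes named from recovered reads had 1 alternative, the RPKM fit with no filter, where each held. With only the 2 groups fitted 937 genes were higher and 1410 lower, while voom on recovered reads, which tests more genes, called 3186 higher and, for the difference between 4N and 2N, 3521 genes. Without 1 library at a time 1070 to 1372 genes were higher, 1562 to 2476 lower and 35.7 to 42.1% of calls higher, and 1093 to 1915 genes passed the difference test, with 1093 without control 4N replicate 1 and 1251 without control 4N replicate 3. The cause was not tested. Of genes that had not passed in 2N, KPNA2, CCND1 and GAPDH passed under 3, 2 and 2 alternatives. Others changed sign. Without 1 library CCN1 ran from -0.072 to 0.131 and CCN2 from -0.077 to 0.236, both lowest without control 2N replicate 3, SNORD20 ran from -0.394 to 0.252 and RPS27P2 from -0.13 to 0.146 (0.135 without Anillin 2N replicate 3). RPS27P2 was at 0.007 with median-of-ratios scaling, 0.025 with quantile scaling and 0.127 with voom. No paired analysis was possible because replicate numbers were given in order of deposit and pair no samples. Depth limits genes of low RPKM, and small RNAs rest on few reads.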
